A study of Homo sapiens with 4 samples.

Results

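The 9 genes described here carry MHC class I antigen presentation: the heavy chain genes HLA-B, HLA-C, HLA-E, HLA-F and HLA-G, the light chain gene B2M, the peptide transporter genes TAP1 and TAP2, and the transactivator gene NLRC5. They were picked out by gene symbol, by a rule that uses no measured value although earlier results of these data were known, and are 9 of the 58274 gene identifiers in the table. All 9 passed the filter, at least 1 FPKM in at least 1 library, as did 17137 genes in all. FPKM stands for fragments per kilobase of transcript, scaled to the mapped fragments of the library, so levels are per length and can be set side by side between genes.

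Transcriptomes of 4 cell populations were measured by RNA sequencing, with 1 library each. BC1, an induced pluripotent line of human origin, was sequenced undifferentiated. The other 3 populations came from the same line, made to differentiate toward blood with activin A and BMP4 and afterwards with VEGF and bFGF, and were the APLNR+ cells of day 2, the CD31+CD34+ cells of day 5 and the CD43+ cells of day 8. APLNR, the apelin receptor, marks mesoderm, CD31 with CD34 marks endothelium that can give rise to blood, and CD43 marks early hematopoietic progenitors. There was 1 line and no replicate, so no test between populations was possible and no p-value is given. Each fold change carries a 95% interval of counting error only, computed from approximate fragments, and says nothing of the variation between cultures or sorts. In such bulk samples, fewer cells that express a gene and less RNA of it per cell cannot be told apart.

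Depth was similar across the libraries, between 19700000 (BC1) and 23600000 (CD31+CD34+) mapped fragments, as read from the steps between low values. The summed markers of each label were highest in the population so labelled, although PECAM1, which encodes CD31, was higher in CD43+ (126 FPKM) than in CD31+CD34+ (93.1 FPKM). Summed FPKM of 4 pluripotency genes was 2555 in BC1 and at most 733 elsewhere, that of 4 mesoderm genes was 1849 in APLNR+ and at most 211 elsewhere, that of 4 endothelial genes was 1113 in CD31+CD34+ and at most 245 elsewhere, and that of 4 hematopoietic genes was 1401 in CD43+ and at most 146 elsewhere. Cells with high class I levels of their own were looked for with lists of 5 lymphoid genes, whose sum was at most 1.63 FPKM in any library with MS4A1 (CD20) at 0 in all 4, and 5 monocyte and dendritic cell genes, whose sum ranged from 2.15 FPKM in BC1 to 21.6 FPKM in CD43+. Of the latter list, LYZ (lysozyme) and CSF1R were at their highest in CD43+, with 12.7 and 8.80 FPKM. CD14 and ITGAX were at their lowest there, with 0.0339 and 0.0125 FPKM, and CD1C was at 0. The part of such cells in the class I levels was not tested.

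A class I molecule is a heavy chain held by the light chain beta-2-microglobulin, with a short peptide in its groove, and shows the cell's own protein content to CD8 T cells and natural killer cells at the surface. Proteasomes cut the peptides, the TAP1-TAP2 pump carries them into the endoplasmic reticulum, and a loading complex fits them to the heavy chain. HLA-B and HLA-C are classical, highly variable heavy chains that present peptides to T cells. HLA-E, HLA-F and HLA-G are non-classical and nearly invariant, and are read mainly by receptors of natural killer and myeloid cells. Interferons raise most of these genes, in part through NLRC5, which binds factors at a shared promoter module. Pluripotent cells are known for low class I levels.

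Promoter stretches of HLA-B, HLA-C, HLA-G and B2M are shown so that they can be set beside the levels below. Those of HLA-F, TAP1 and TAP2 were searched but are not printed. Windows from 250 bases before to 50 after the annotated start came from RefSeq on GRCh38.p14, and 7 of the 9 genes matched with 10 windows in all, HLA-G with 3 and TAP1 with 2. Only the 250 bases before the start were searched, in these windows and in those of other genes. HLA-E and NLRC5 were not matched. The letters searched, on both strands, were GGGGATTC for enhancer A, GAAANNGAA and TTTCNNTTC as 2 forms of the interferon-stimulated response element (ISRE), TGACG for the X box and CCAATCAG for the Y box. Capitals mark the matches, each stretch is written 5′ to 3′ on the gene's strand, and bases within exons of protein-coding genes were left off. The B2M stretch holds its Y box letters on the opposite strand, as CTGATTGG, and its 2 ISRE matches overlap each other.
HLA-B, chr6:31357189-31357429, minus strand: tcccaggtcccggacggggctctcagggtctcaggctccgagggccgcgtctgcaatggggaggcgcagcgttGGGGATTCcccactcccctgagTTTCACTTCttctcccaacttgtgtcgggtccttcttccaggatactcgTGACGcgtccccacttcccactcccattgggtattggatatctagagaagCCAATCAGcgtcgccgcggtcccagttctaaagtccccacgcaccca
HLA-C, chr6:31272131-31272342, minus strand: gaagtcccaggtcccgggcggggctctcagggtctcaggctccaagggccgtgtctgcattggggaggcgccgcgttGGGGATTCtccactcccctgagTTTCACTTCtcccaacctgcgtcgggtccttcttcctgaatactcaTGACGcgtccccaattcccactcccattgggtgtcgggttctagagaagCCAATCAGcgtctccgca
HLA-G, chr6:29827575-29827732, plus strand: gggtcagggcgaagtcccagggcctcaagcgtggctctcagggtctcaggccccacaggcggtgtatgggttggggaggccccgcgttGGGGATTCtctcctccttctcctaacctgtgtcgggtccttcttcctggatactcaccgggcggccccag
B2M, chr15:44711317-44711486, plus strand: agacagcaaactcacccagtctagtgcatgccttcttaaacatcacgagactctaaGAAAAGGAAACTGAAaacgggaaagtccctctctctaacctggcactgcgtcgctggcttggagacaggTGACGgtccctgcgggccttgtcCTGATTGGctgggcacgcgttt

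Among 35116 promoter windows, enhancer A letters were in 0.772%, the ISRE forms GAAANNGAA in 6.88% and TTTCNNTTC in 6.56%, X box letters in 21.2% and Y box letters in 3.81%. The HLA-B and HLA-C windows held all 4 kinds, in the order enhancer A, ISRE, X box, Y box, and were the only 2 windows to do so, both with TTTCNNTTC as the ISRE. Counted from the start, they began at -177, -155, -106 and -56 in HLA-B and at -173, -151, -105 and -56 in HLA-C. Of the 3 HLA-G windows, 1 held enhancer A letters at -162 and Y box letters at -56, the latter beyond the printed stretch, and neither ISRE nor X box letters. The B2M window held GAAANNGAA, X box and Y box letters but not those of enhancer A, the HLA-F window GAAANNGAA and Y box letters, the TAP2 window both ISRE forms and X box letters, and 1 of the 2 TAP1 windows GAAANNGAA alone. A match is a description of letters and not evidence of a bound site. The letters searched stand for elements of class I promoters, so finding all kinds in HLA-B and HLA-C alone is no test. Neither of these 2 windows held GAAANNGAA, the other ISRE form.

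The 9 genes did not move as a block. From BC1 to CD43+, B2M, NLRC5, HLA-E and HLA-B rose, HLA-G fell, and HLA-C, HLA-F, TAP1 and TAP2 changed by less than the threshold. A gene was called risen or fallen when log2(FPKM + 1) changed by at least 1, a scale that understates the change of low genes. Of all 17137 genes, 15.2% rose and 18.9% fell over this span, against 4 and 1 of the 9. The median change of the 9 was 0.93 on the log2 scale and that of all genes was -0.06. CD43+ was the highest of the 4 populations for 6 of the 9 genes (HLA-B, HLA-C, B2M, TAP1, TAP2 and NLRC5), while 24% of all genes were highest there. The other 3 peaked elsewhere, HLA-G in BC1 (as did 27.7% of all genes), HLA-F in APLNR+ (22.7%) and HLA-E in CD31+CD34+ (25.5%).

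**Figure D1:**
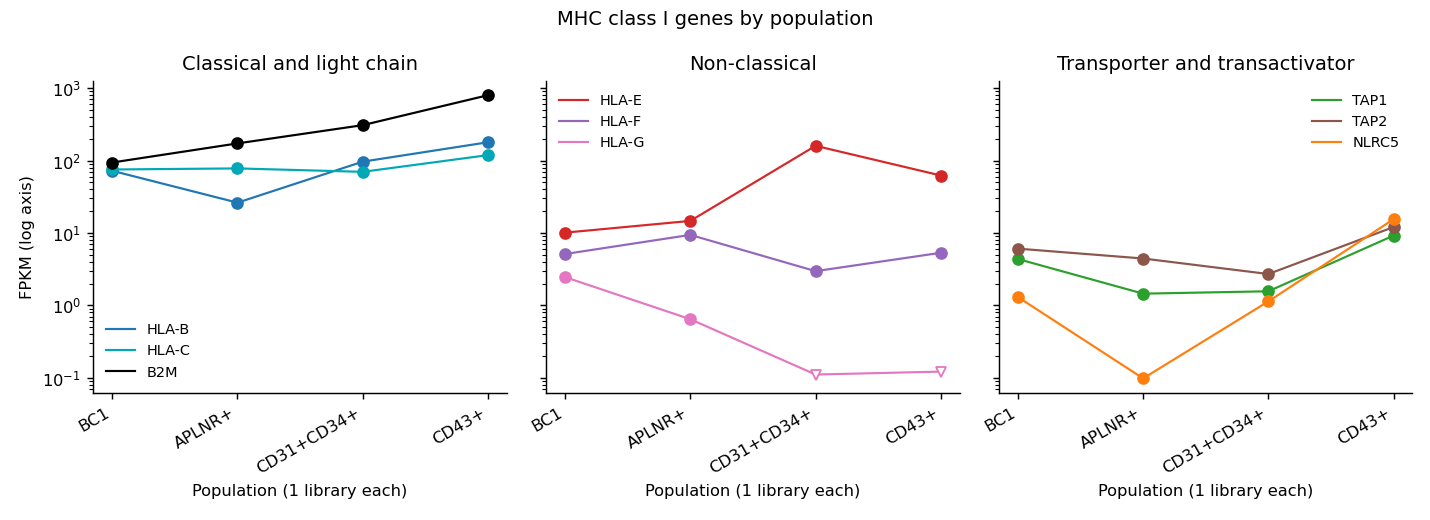
FPKM of the 9 genes (y axis, log scale) in the 4 populations (x axis, 1 library each), with heavy and light chain, non-classical and transporter or transactivator genes in separate panels. Filled circles are deposited values, and the 2 open triangles are HLA-G values below the level of 3 fragments, drawn at that level (0.111 and 0.122 FPKM). B2M was higher in each population than in the one before, HLA-E peaked in CD31+CD34+, and NLRC5 had its lowest value, 0.0980 FPKM, in APLNR+.

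The classical heavy chains were examined first. HLA-B (ENSG00000234745.10, chromosome 6, 31269491 to 31357188, minus strand) had 72.2 FPKM in BC1, 26.2 in the APLNR+ cells, 96.5 in the CD31+CD34+ cells and 179.0 in the CD43+ cells. It was thus lowest in the mesoderm cells and highest in the blood progenitors. From BC1 to APLNR+ it fell, being 2.75-fold lower (95% counting interval 2.43 to 3.13), and from APLNR+ to CD31+CD34+ it rose 3.68-fold (3.27 to 4.16). The last step was 1.85-fold (1.73 to 1.99), a change of 0.88 on the log2 scale that missed the threshold, and the level in CD43+ was 2.48-fold that in BC1 (2.29 to 2.69).

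HLA-C (ENSG00000204525.16, chromosome 6, 31268749 to 31272130, minus strand) had 75.3 FPKM in BC1, 77.9 in the APLNR+ cells, 69.9 in the CD31+CD34+ cells and 119 in the CD43+ cells. No step of HLA-C reached the threshold, and its first 3 levels lay close together. The fold from BC1 to CD43+ was 1.58 (1.48 to 1.68). HLA-B and HLA-C therefore did not move in parallel, although their promoter stretches above hold the same 4 kinds of letters. Their ratio, HLA-B over HLA-C, was 0.959 in BC1, 0.336 in the APLNR+ cells, 1.38 in the CD31+CD34+ cells and 1.51 in the CD43+ cells. The HLA-B locus in the table overlaps that of HLA-C by 2640 bases on the same strand, and the HLA genes share near-identical stretches, so how fragments were divided between them is uncertain. The alleles that BC1 carries were not analysed here, and their part in these ratios was not tested.

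The non-classical heavy chains went 3 different ways. HLA-E (ENSG00000204592.8, chromosome 6, 30489467 to 30494205, plus strand), the ligand of the NKG2 receptors with CD94, had 10.1 FPKM in BC1, 14.7 in the APLNR+ cells, 160 in the CD31+CD34+ cells and 62.2 in the CD43+ cells. The endothelial population stood far above the other 3. A list of 5 fibroblast and stroma genes summed to 52.8, 94.7, 398 and 47.0 FPKM in the order of differentiation and was also highest there (COL1A1 184 and COL1A2 207 FPKM, with DCN at 0), and its part in the HLA-E level was not tested. The rise into CD31+CD34+ was 10.9-fold (10.1 to 11.8), larger on the log2 scale than the change of 98.7% of all genes at that step. HLA-E then fell, being 2.57-fold lower in CD43+ (2.47 to 2.68), yet kept 6.16 times its BC1 level (5.58 to 6.80).

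HLA-F (ENSG00000204642.13, chromosome 6, 29722775 to 29738528, plus strand), a mostly intracellular heavy chain that can reach the surface without peptide, had 5.12 FPKM in BC1, 9.41 in the APLNR+ cells, 2.97 in the CD31+CD34+ cells and 5.32 in the CD43+ cells. It was the only one of the 9 with its highest value in APLNR+. It fell from APLNR+ to CD31+CD34+, being 3.17-fold lower (2.42 to 4.24), and no other step passed the threshold. BC1 and CD43+ differed by a fold of 1.04 (0.793 to 1.37), within counting error. An antisense transcript, HLA-F-AS1, overlaps the locus at 1.46 FPKM in BC1 and at most 0.738 elsewhere, and whether strand was used in counting is not given in the sources used here.

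HLA-G (ENSG00000204632.11, chromosome 6, 29826967 to 29831125, plus strand), known for its expression in trophoblast and for restraining natural killer cells, had 2.46 FPKM in BC1, 0.644 in the APLNR+ cells, 0.0740 in the CD31+CD34+ cells and 0 in the CD43+ cells. The value in CD31+CD34+ stands for about 2 fragments, below the 3 fragments that a library at 0 allows. HLA-G fell at the first step, being 3.82-fold lower in APLNR+ (2.15 to 7.10), and was at least 20.2-fold lower in CD43+ than in BC1, taking the floor of 0.122 FPKM for CD43+. The ratio of APLNR+ to CD31+CD34+ was 8.70, with a wide interval from 2.04 to 77.7. Of 6 trophoblast genes, CGB3 and XAGE2, made by placental trophoblast, were at 0 in all 4 libraries and CGA was at most 0.0819 FPKM, while KRT7, a keratin of simple epithelia, had 8.03 FPKM in BC1 and at most 0.0842 elsewhere. The summed level of the list was 8.49, 32.0, 43.5 and 3.36 FPKM in the order of differentiation, with GATA3 making up most of it in the middle populations.

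Over the whole span, the fold of the light chain was above those of the 5 heavy chains, but not at the step into CD31+CD34+, where HLA-B and HLA-E rose more. B2M (ENSG00000166710.17, chromosome 15, 44711477 to 44718877, plus strand) had 93.9 FPKM in BC1, 172 in the APLNR+ cells, 308 in the CD31+CD34+ cells and 799 in the CD43+ cells, and was the highest of the 9 genes in each library. Each population was above the one before it. The steps were 1.84-fold (1.72 to 1.96), 1.79-fold (1.71 to 1.87) and 2.59-fold (2.51 to 2.68), of which only the last passed the threshold, and the whole span was 8.51-fold (8.05 to 9.0). In CD43+ its level exceeded that of 99.3% of the genes that passed the filter.

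The 5 HLA genes summed to 165 FPKM in BC1, 129 in the APLNR+ cells, 329 in the CD31+CD34+ cells and 365 in the CD43+ cells. B2M over this sum was 0.569, 1.34, 0.936 and 2.19 in the same order, so the light chain was the lower partner in BC1 and CD31+CD34+ and the higher one in APLNR+ and CD43+. Not every heavy chain gene is in this sum, and its ratios hold for these 5 genes alone. The make-up of the sum shifted as well. HLA-C was the largest part in BC1 (45.6%) and APLNR+ (60.5%), HLA-E in CD31+CD34+ (48.5%) and HLA-B in CD43+ (49.0%). HLA-E made up 6.11% in BC1, 11.4% in APLNR+ and 17.0% in CD43+.

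**Figure D2:**
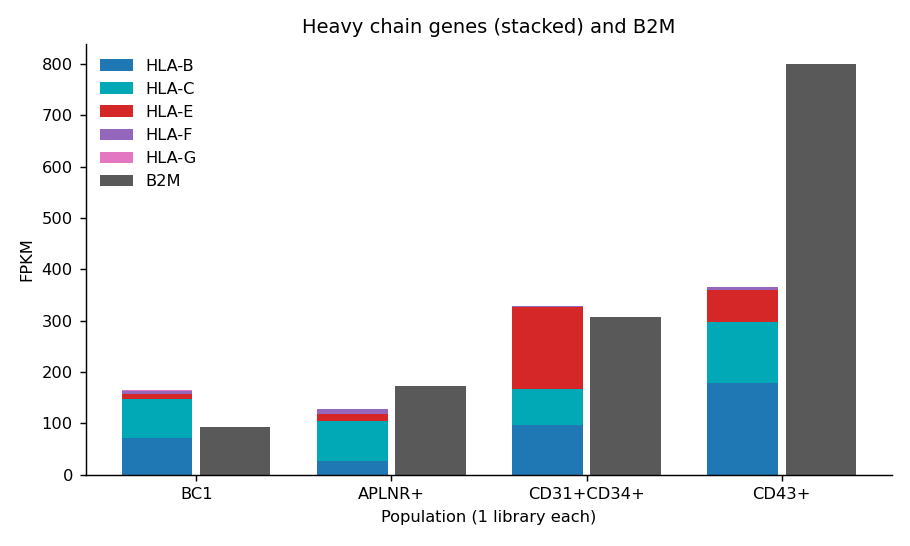
Summed FPKM (y axis) of HLA-B, HLA-C, HLA-E, HLA-F and HLA-G as stacked bars, beside the FPKM of B2M as grey bars, in the 4 populations (x axis, 1 library each). The stacked bars reach 165, 129, 329 and 365 FPKM and the grey bars 93.9, 172, 308 and 799 FPKM. The part taken by HLA-E is widest in CD31+CD34+.

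Both transporter subunits were lowest in 1 of the middle populations and highest in CD43+. TAP1 (ENSG00000168394.10, chromosome 6, 32845209 to 32853978, minus strand) had 4.36 FPKM in BC1, 1.45 in the APLNR+ cells, 1.56 in the CD31+CD34+ cells and 9.21 in the CD43+ cells. It fell at the first step, being 3.01-fold lower in APLNR+ (2.23 to 4.17), and rose 5.89-fold at the last (4.52 to 7.69). TAP2 (ENSG00000204267.13, chromosome 6, 32821833 to 32838780, minus strand) had 6.07 FPKM in BC1, 4.44 in the APLNR+ cells, 2.71 in the CD31+CD34+ cells and 12.1 in the CD43+ cells, and its only call was a 4.46-fold rise at the last step (3.96 to 5.03). From BC1 to CD43+ the fold was 2.11 for TAP1 (1.74 to 2.55) and 1.99 for TAP2 (1.81 to 2.19), changes of 0.93 and 0.89 on the log2 scale that missed the threshold. TAP2 over TAP1 was 1.39, 3.06, 1.73 and 1.31 in the order of differentiation. Each transporter locus overlaps other genes: TAP1 lies wholly within the annotated locus of PSMB9 on the opposite strand, and TAP2 shares its locus with AL669918.1, listed at 0.0671 to 1.75 FPKM.

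NLRC5 (ENSG00000140853.15, chromosome 16, 56989485 to 57083531, plus strand) had 1.30 FPKM in BC1, 0.0980 in the APLNR+ cells, 1.14 in the CD31+CD34+ cells and 15.5 in the CD43+ cells. The level in APLNR+ rests on about 5 fragments. It fell at the first step, being 13.3-fold lower (5.38 to 42.3), and the ratio of CD31+CD34+ to APLNR+ was 11.6 (4.76 to 37.3), a change of 0.96 on the log2 scale without a call, which passed the threshold with a pseudocount of 0.1 (2.64). From CD31+CD34+ to CD43+ it rose 13.6-fold (10.5 to 17.8), more on the log2 scale than 99.0% of all genes, and CD43+ had 11.9 times the BC1 level (9.24 to 15.8). HLA-B, TAP1 and NLRC5 all went down at the first step and up at the others, the middle step of TAP1 within counting error (1.08-fold, 0.758 to 1.57), while HLA-E and HLA-F took other courses.

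The order of the levels changed between populations. In BC1 it ran B2M, HLA-C, HLA-B, HLA-E, TAP2, HLA-F, TAP1, HLA-G, NLRC5, and the neighbours HLA-C and HLA-B, TAP2 and HLA-F, and HLA-F and TAP1 did not differ beyond counting error. In APLNR+ the order was B2M, HLA-C, HLA-B, HLA-E, HLA-F, TAP2, TAP1, HLA-G, NLRC5, with every neighbour apart. In CD31+CD34+ HLA-E moved up to the place after B2M, and HLA-F and TAP2, and TAP1 and NLRC5, did not differ beyond counting error. In CD43+ HLA-B followed B2M, NLRC5 stood above both transporter genes, and every neighbour was apart.

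Step by step, the 9 genes behaved differently. From BC1 to APLNR+, 0 rose and 4 fell (HLA-B, HLA-G, TAP1 and NLRC5), where 9.15% of all genes rose and 9.32% fell, and the median change of the 9 was -0.38 against 0.00 for all genes. From APLNR+ to CD31+CD34+, 2 rose (HLA-B and HLA-E) and 1 fell (HLA-F), where 13% of all genes rose and 11.4% fell, with medians of 0.07 and 0.01. At the last step, into CD43+, 4 rose (B2M, TAP1, TAP2 and NLRC5) and 1 fell (HLA-E), where 7.63% of all genes rose and 13.5% fell, with medians of 0.88 and -0.08. The comparisons share libraries, so a low value in 1 library enters a fall and the rise after it.

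**Figure D3:**
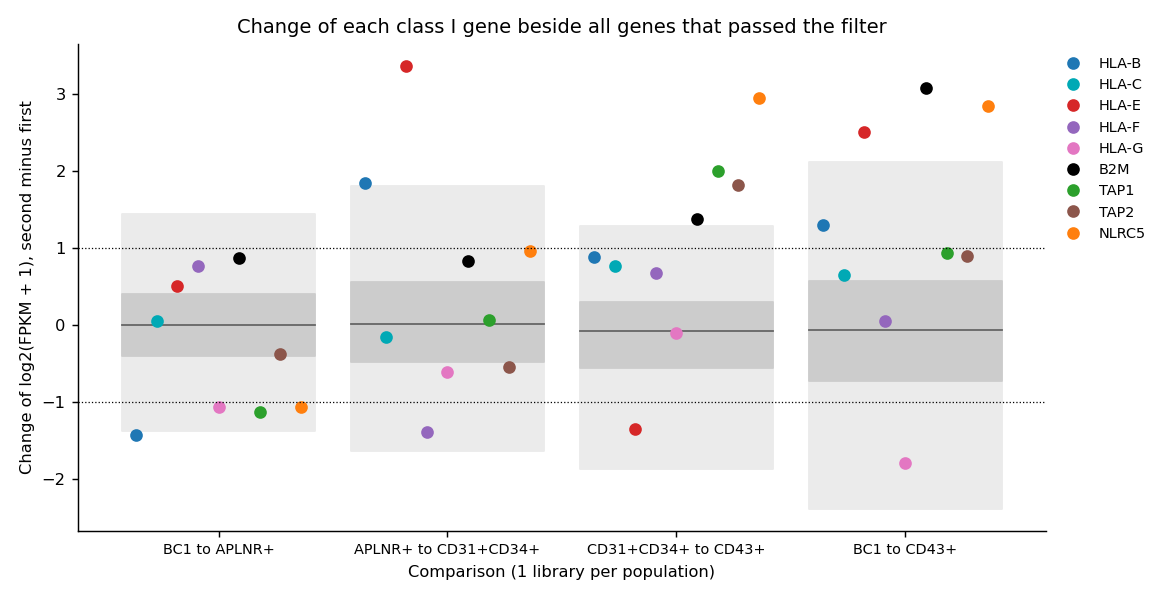
Change of log2(FPKM + 1) of each of the 9 genes (coloured points, y axis) in the 3 consecutive comparisons and from BC1 to CD43+ (x axis), second population minus first. The dark band spans the middle 50% and the light band the middle 90% of all 17137 genes, the grey line is their median, and dotted lines mark the threshold of 1 in either direction. The highest point is HLA-E from APLNR+ to CD31+CD34+, at 3.36.

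The genes whose pattern was closest to each member were taken from 8932 protein-coding genes, by the root mean squared difference of the centred log2(FPKM + 1) values over the 4 libraries. With 4 points each, closeness is a description only. TMEM63A was the closest to HLA-B at 0.0511, followed by UBE2L6, an enzyme of ISG15 conjugation, at 0.0847 (44.8, 18.2, 70.4 and 122 FPKM). The genes nearest to NLRC5 were AIF1 and PTPN6, a phosphatase of blood cells, at 0.136 and 0.147. TRIM8 (0.180) was nearest to HLA-E, ME1 (0.114) to B2M, EME2 (0.0713) to TAP2, RPUSD1 (0.0686) to HLA-F and SKA3 (0.0499) to HLA-G. Second came SPINK4 (0.188) for HLA-E, SERPINB1 (0.123) for B2M, TRIB1 (0.111) for TAP2, NSDHL (0.0766) for HLA-F and IGSF9 (0.0573) for HLA-G. This scale understates the change of low genes, so closeness to HLA-G or NLRC5 does not mean like folds. From BC1 to CD43+, HLA-G went from 2.46 to 0 FPKM and SKA3 from 25.8 to 7.48. From BC1 to APLNR+, NLRC5 went from 1.30 to 0.0980 FPKM and AIF1 from 17.8 to 6.62. HLA-C ranged over less than 1 on the log2 scale and was not compared. Among the 9 themselves, TAP1 and TAP2 were the closest pair at 0.318, and HLA-E and HLA-G the farthest at 2.19.

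The machinery that supplies peptides was described by lists of genes. The immunoproteasome, a form of the proteasome suited to class I peptides, and the trimming enzymes made up 8 genes, of which 7 passed the filter. At the first step 0 of the 7 rose and 2 fell, where 9.15% of all genes rose and 9.32% fell. At the next 0 rose and 1 fell, where 13% of all genes rose and 11.4% fell. At the step into CD43+ 4 rose (PSMB8, PSMB10, PSME1 and the aminopeptidase gene LNPEP) and 0 fell, where 7.63% of all genes rose and 13.5% fell. The medians were -0.56, 0.32 and 1.03, and those of all genes 0.00, 0.01 and -0.08. PSMB8, a catalytic subunit encoded beside the TAP genes, had 9.30, 1.31, 1.71 and 14.8 FPKM in the order of differentiation, a fall of the kind TAP1 showed at the first step and a rise at the last. PSMB10, another catalytic subunit, had 25.6, 17.1, 5.29 and 18.1 FPKM, lowest in CD31+CD34+. PSME1, part of the activator cap, rose from 43.6 FPKM in CD31+CD34+ to 91.3 in CD43+, and PSME2, its partner, went from 33.8 to 59.8 without a call. PSMB9, whose annotated locus on the opposite strand contains that of TAP1, was named for its position after its values were seen. It had 3.20, 0.808, 1.26 and 1.67 FPKM and no call at the last step (0.24), where TAP1 rose by 1.99 on the log2 scale. Whether strand was used in counting is not given in the sources used here, so how fragments were divided between PSMB9 and TAP1 is uncertain.

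In the constitutive proteasome, which all cells use, 0 of 15 genes rose at any step and 1 fell, PSME3 from APLNR+ to CD31+CD34+, with a median of -0.39 from BC1 to CD43+. Of all genes, 9.15%, 13% and 7.63% rose and 9.32%, 11.4% and 13.5% fell at the consecutive steps, and their median from BC1 to CD43+ was -0.06. Of the 6 peptide loading genes, 1 was called. TAPBP encodes tapasin, the bridge between TAP and the heavy chain, and had 12.9, 12.2, 46.0 and 45.1 FPKM, a rise of 1.83 on the log2 scale into CD31+CD34+ that was kept. PDIA3, CANX and UGGT1, general folding factors, had no call, with 146, 85.6 and 14.6 FPKM in CD31+CD34+.

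From BC1 to CD43+, the listed class I transcription factor genes rose by at most 1.48 on the log2 scale, against 2.84 for NLRC5. Of these 14 genes, 0 were called at any single step. Over the whole span 4 rose (NFYA, RELA, IRF2 and NFKB1) and 0 fell, with a median of 0.31. Of all genes, 15.2% rose and 18.9% fell over that span, and at the single steps 7.63% to 13% rose and 9.32% to 13.5% fell. RFX5 and RFXANK had 27.2 and 53.6 FPKM in BC1 and 38.3 and 89.1 in CD43+, with no call. NFYA, a Y box factor, went from 10.9 to 32.0 FPKM, and RELA, an NF-kappaB subunit that binds enhancer A, from 10.3 to 30.5.

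Many interferon-stimulated genes rose at the same step as the transporter genes and NLRC5. Of 22 listed, 19 passed the filter. At the step into CD43+ 14 of them rose and 0 fell, with a median of 2.99 on the log2 scale, where 7.63% of all genes rose and 13.5% fell. At the first step 2 rose and 3 fell, where 9.15% of all genes rose and 9.32% fell. At the next 4 rose and 1 fell, where 13% of all genes rose and 11.4% fell. IFI6 had 8.61 FPKM in CD31+CD34+ and 1675 in CD43+, MX1, an antiviral GTPase, 0.636 and 177, OAS3, a sensor of double-stranded RNA, 5.57 and 125, and IFIT1 0.902 and 128. The 5 without a call at that step were BST2 (241 to 129 FPKM), IFITM2 (340 to 517 FPKM), IFITM3 (480 to 958 FPKM, just under the threshold), GBP2 (1.05 to 0.143 FPKM) and IDO1. IDO1 had 23.2 FPKM in BC1 and at most 0.0322 elsewhere.

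Among 14 genes of interferon receptors and signalling, 5 rose and 2 fell at the last step, and 7 rose and 2 fell from BC1 to CD43+. For all genes, 7.63% rose and 13.5% fell at the last step, and 15.2% rose and 18.9% fell from BC1 to CD43+. IRF7, a factor that drives type I interferon genes, had 3.07, 2.27, 7.75 and 95.1 FPKM, and IRF9, a factor that acts at the ISRE, had 5.56, 9.46, 14.9 and 59.2 FPKM. The falls at the last step were SOCS3, an inhibitor of this signalling (19.5, 58.2, 60.2 and 3.48 FPKM), and IFNGR2, a chain of the interferon gamma receptor (17.3 to 6.71 FPKM). From BC1 to CD43+ the falls were SOCS3 and the inhibitor gene SOCS1, which had 27.4, 135, 2.82 and 1.62 FPKM. APLNR+ had the highest SOCS1 level of the 4 libraries. Of the 9 genes, HLA-B, TAP1 and NLRC5 were lowest in APLNR+, HLA-F was highest there, and the rest were neither. Whether interferon signalling had a part in the levels of the 9 genes was not tested.

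**Figure D4:**
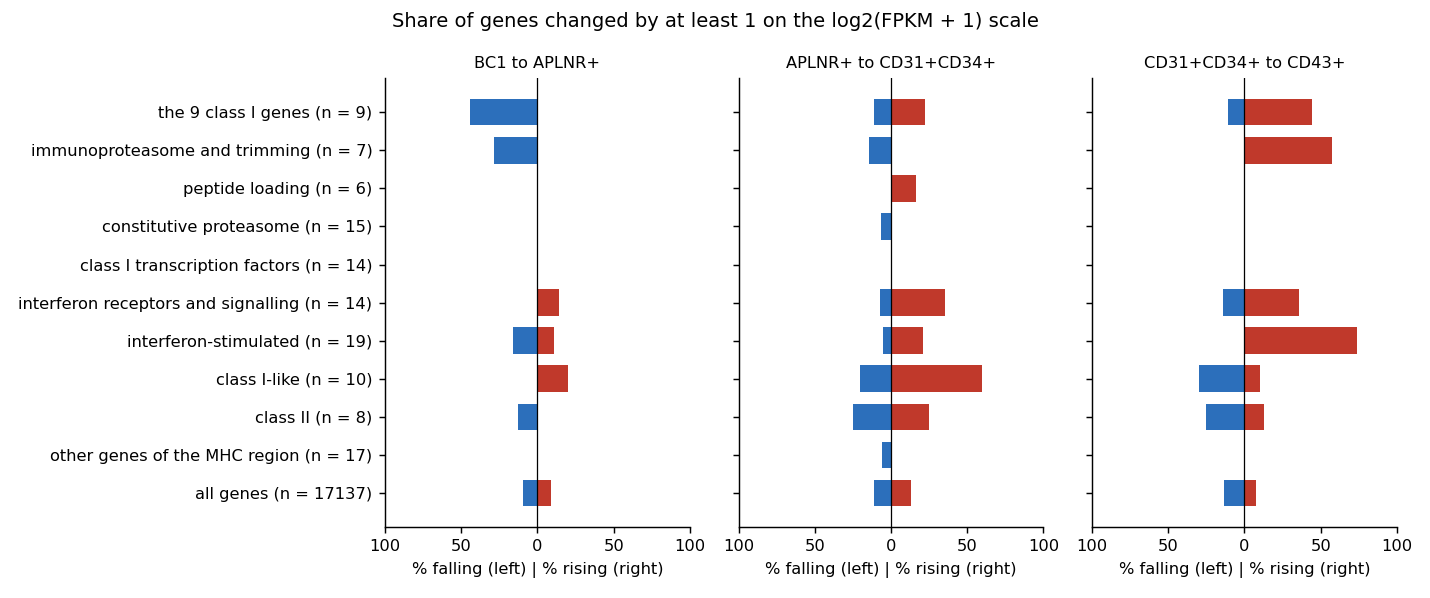
Percent of the genes of each list that fell (blue, left of 0) or rose (red, right of 0) by at least 1 on the log2(FPKM + 1) scale in the 3 consecutive comparisons, with the number of genes that passed the filter in parentheses and all 17137 genes in the bottom row. In the right-hand panel 4 of the 9 class I genes, 4 of 7 immunoproteasome and trimming genes and 14 of 19 interferon-stimulated genes rose, against 7.63% of all genes.

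Class I-like genes share the fold but not the peptide pathway. Of 11 listed, 10 passed the filter. At the step into CD31+CD34+, 6 rose and 2 fell, where 13% of all genes rose and 11.4% fell. At the step into CD43+, 1 rose and 3 fell, where 7.63% of all genes rose and 13.5% fell. Of the 10, 2 were highest in CD43+, against 24% of all genes. PROCR, the endothelial protein C receptor, had 9.86, 9.62, 52.6 and 4.74 FPKM, with its peak in the same population as HLA-E. FCGRT, the neonatal Fc receptor that also pairs with B2M, rose from 14.2 FPKM in BC1 to 54.9 in CD43+. CD1D, which presents lipids, was highest in APLNR+ with 10.5 FPKM and was at most 1.22 elsewhere.

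The class II genes, which serve presentation to CD4 T cells, showed no like rise. Of 12 listed, 8 passed the filter. From BC1 to CD43+, 1 of the 8 rose and 4 fell, with a median of -0.92. Over this span 15.2% of all genes rose and 18.9% fell. CD74, the invariant chain, had 44.6 FPKM in BC1 and 20.3 in CD43+, and CIITA, the class II counterpart of NLRC5, was at most 0.286 FPKM. HLA-DPA1 was the gene that rose, from 5.08 to 11.5 FPKM.

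The genes listed as other genes of the MHC region moved little. Of 17 other genes of the MHC region, 0 rose and 1 fell at the consecutive steps, ABCF1 from APLNR+ to CD31+CD34+ (53.2 to 21.8 FPKM), and 0 were called from BC1 to CD43+, with a median of -0.05. From BC1 to CD43+ 15.2% of all genes rose and 18.9% fell, with a median of -0.06. At the consecutive steps 7.63% to 13% of all genes rose and 9.32% to 13.5% fell. That list leaves out genes of the region placed in other lists, of which some moved more. POU5F1, a pluripotency marker located between HLA-E and HLA-C, had 1997 FPKM in BC1 and 0.235 in CD43+. PSMB8 and TAPBP also lie in the region and had calls, as given above. Of 9 class I pseudogenes, HLA-H alone passed the filter, at 1.58 FPKM in BC1 and 0.627 in CD43+. The 7 receptors that bind class I on other cells were at most 0.288 FPKM in any library. Of 10 reference genes, 0 were called from BC1 to CD43+, although ACTB rose by 1.55 on the log2 scale at the last step after it fell by 1.11.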

How the data were processed

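Total RNA libraries were made with a TruSeq kit, 1 for each of BC1, APLNR+, CD31+CD34+ and CD43+ cells. The authors deposited FPKM values per gene. The submitters' processing notes name BWA, Bowtie, RSEM and hg19 without roles, whereas loci in the table match GENCODE release 29 on GRCh38 (7 of the 9 members in version and position), so GRCh38 positions are given, with the first base as 1. The table held 58365 rows. Rows of the 90 identifiers on more than 1 row were summed (no member was among them). Changes were taken on log2(FPKM + 1) for genes of at least 1 FPKM in 1 library and called at 1. FPKM values are not counts and each population had 1 library, so no count model or test was used.

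Depth was fitted from the spacing of low FPKM values: 84.2% to 86.0% of the values used lay within 0.1 of a whole fragment. Fold intervals are exact Clopper-Pearson 95% intervals on the resulting approximate fragments, and a fold against a library at 0 was computed from a floor of 3 fragments, as a bound. The steps were tested on simulated data. The members, the 12 lists, the 8 marker lists and the alternatives were chosen with earlier results of these data known. All members are named, and from each list up to 4 genes of at least 10 FPKM with the largest change. Genes alike in pattern were the 3 nearest profiles, of which the nearest are named, apart from that of TAP1, which is not reported here. Other list genes named beside counts were chosen after their values were seen. Python 3.11.15, pandas 2.3.3 and scipy 1.17.1 were used.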

Additional observations from a re-analysis of the deposited data

How the results depend on the processing

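No paired analysis was possible because each population had 1 library, and leaving out a replicate could not be done for the same reason. No alternative reversed a called change. With a pseudocount of 0.1, 2 genes fell from APLNR+ to CD31+CD34+, HLA-G joining HLA-F. With 0.01 the number was again 2, and 2 fell from CD31+CD34+ to CD43+, where the added HLA-G value rests on about 2 fragments. Keeping genes of at least 5 FPKM removed HLA-G, so 0 fell from BC1 to CD43+, and the median changes became -0.17 from BC1 to APLNR+ and 1.13 from CD31+CD34+ to CD43+. The latter median was 1.03 with median-of-ratios scaling, 0.77 after rescaling to equal library totals, and 0.9996 as a mean. That rescaling moved the median of all genes at this step from -0.08 to -0.19. HLA-B reached the threshold there (1.03) under median-of-ratios scaling only, TAP1 from BC1 to CD43+ under it and both pseudocounts (at most 1.08), and NLRC5 from APLNR+ to CD31+CD34+ under both pseudocounts and equal totals (1.31 to 3.41).

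At a threshold of 2, 0 genes fell at the first step, 1 rose (HLA-E) and 0 fell at the next, 1 rose (NLRC5) and 0 fell at the last, and 0 fell from BC1 to CD43+. Calls over the pathway lists and comparisons then numbered 54, against 116. At a threshold of 0.5, 2 rose from BC1 to APLNR+, 4 rose and 3 fell into CD31+CD34+, 7 rose at the last step and 7 rose from BC1 to CD43+. The median from APLNR+ to CD31+CD34+, 0.07, was 0.45 for genes of at least 5 FPKM and 0.48 as a mean, within the wide counting interval of TAP1, the gene at the median. These are among 96 values that stayed within 1.5 times the reported count or within such an interval. Depth limits HLA-G and NLRC5 most, and the lack of replicates limits every value.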
